A study of Mus musculus with 5 samples.

Results

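The phagocyte NADPH oxidase genes described here were Cybb, Cyba, Ncf1, Ncf4 and Rac2, 5 of the 27998 genes in the count matrices, found by their symbols. Their transcripts were counted per cell with a droplet method that reads the 3' end of each RNA, in blood progenitors that were sorted from bone marrow of healthy C57BL/6 mice of wild-type genotype. The GMP gate (granulocyte/monocyte progenitors) took cells without lineage antigens or SCA1 that carried KIT, CD34 and CD16/32, which are Fc receptors. The CMP gate (common myeloid progenitors) differed from it only in lacking CD16/32. The LSK gate, which holds the stem cells, took lineage-negative cells with SCA1 and KIT, and the MEP gate (megakaryocyte/erythroid progenitors) took cells that were lineage-negative, KIT-positive and negative for SCA1, CD34 and CD16/32. No transgene, deletion or treatment was involved, and the labels give no age and no number of animals. Each gate was 1 library, since the 2 CMP samples held identical matrices and were counted once. Differences between gates therefore have no replicate check, and every interval below is a 95% interval that covers counting error only.

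The oxidase moves electrons from NADPH across a membrane to oxygen and so makes superoxide, the first product of the respiratory burst with which neutrophils and macrophages kill ingested microbes. Its membrane part, cytochrome b558, joins the catalytic subunit gp91phox (NOX2, encoded by Cybb) to its partner p22phox (Cyba), each of which needs the other to be stable in phagocytes. On activation cytosolic subunits, among them the organiser p47phox (Ncf1) and p40phox (Ncf4), which binds a phagosomal lipid, move to the membrane with a GTP-loaded Rac protein, mainly the blood cell form Rac2 in neutrophils. In humans, inherited loss of the phox subunits causes chronic granulomatous disease, in which phagocytes cannot mount the burst.

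Per GENCODE M21 (GRCm38), all 5 genes are protein coding. Cybb lies at chrX:9435252-9487771 on the minus strand and Cyba at chr8:122424776-122432930 on the minus strand. Ncf1 lies at chr5:134220053-134229625 on the minus strand. Ncf4, at chr15:78244801-78262580 on the plus strand, and Rac2, at chr15:78559167-78572783 on the minus strand, share a chromosome. The gene Gtf2ird2 overlaps Ncf1 on the opposite strand, and whether the counting used strand is not given in the sources used here. Gtf2ird2 had 224 UMIs in GMP, 81 in CMP and 601 in LSK, against 309 in MEP, where Ncf1 had 5256, 1162, 2516 and 15. A UMI is a unique molecular identifier, and 1 UMI stands for 1 captured RNA molecule.

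Promoters are shown because the 5 genes differed in how narrowly they were expressed, and RefSeq (GRCm38.p6) gave a window of 250 bases before to 50 bases after the start for 3 of them. The windows lie at chrX:9469275-9469574 for Cybb, chr8:122432891-122433190 for Cyba and chr5:134229576-134229875 for Ncf1, all on the minus strand and printed 5′ to 3′ along the gene. The start is that of RefSeq. For Cybb it lies inside the GENCODE span, whose 5′ end is at 9487771, while the Cyba and Ncf1 windows include the GENCODE 5′ ends of their genes. Capitals mark matches on either strand to GAGGAA, a core of the sites bound by the myeloid factor PU.1, to CCAAT, and to GGGCGG, the GC box. No 2 of the matches overlap. Ncf4 and Rac2 are named without a sequence.
Cybb: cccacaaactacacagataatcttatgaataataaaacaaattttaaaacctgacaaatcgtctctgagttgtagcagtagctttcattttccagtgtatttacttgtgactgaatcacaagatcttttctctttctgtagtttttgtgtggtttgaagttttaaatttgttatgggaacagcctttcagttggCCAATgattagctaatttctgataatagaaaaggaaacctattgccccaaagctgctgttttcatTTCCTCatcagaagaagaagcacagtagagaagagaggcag
Cyba: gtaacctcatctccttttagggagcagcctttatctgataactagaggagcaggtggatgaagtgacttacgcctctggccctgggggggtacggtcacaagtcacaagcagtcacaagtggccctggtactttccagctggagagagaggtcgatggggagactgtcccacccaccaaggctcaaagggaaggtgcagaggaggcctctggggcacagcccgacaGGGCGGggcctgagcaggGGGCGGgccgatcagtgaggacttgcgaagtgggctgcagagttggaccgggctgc
Ncf1: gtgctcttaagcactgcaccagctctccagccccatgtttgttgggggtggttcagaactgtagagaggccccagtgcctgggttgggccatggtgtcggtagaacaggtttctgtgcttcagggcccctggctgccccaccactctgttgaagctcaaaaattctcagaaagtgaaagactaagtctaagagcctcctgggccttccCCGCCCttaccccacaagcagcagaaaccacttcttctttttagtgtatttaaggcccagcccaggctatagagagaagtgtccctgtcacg

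The Cybb window held CCAAT, which began 56 bases before the start, and the reverse complement of GAGGAA, which began 9 bases after it. The Cyba window held the GC box at 2 places, 24 and 6 bases before the start, and Ncf1 held it once, reversed, 42 bases before the start. Neither Cyba nor Ncf1 had GAGGAA or CCAAT in its window, and Cybb had no GC box. Each motif is common: of the 32851 mouse promoters in the table, 28.3% held GAGGAA, 37.4% CCAAT and 35.7% GGGCGG. A match is a description of the letters and not a bound site.

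After a filter on genes and mitochondrial UMIs, 8027 GMP, 3713 CMP, 10870 LSK and 6284 MEP cells were kept, with 73362645, 26919088, 75167959 and 80273121 UMIs. The median cell had 9100 UMIs in GMP, 6904 in CMP and 5991.5 in LSK, against 12578 in MEP. The lineage of each gate was checked against fixed marker lists. Levels are in CPM, the UMIs of a gene scaled to a common library total, and are compared between gates and not between genes. The 11 neutrophil markers summed to 14330 CPM in GMP, against 1308.3 in CMP, 174.4 in LSK and 11.7 in MEP. The 14 erythroid markers summed to 47.4 CPM in GMP, against 394.8 in CMP, 1309.3 in LSK and 10793 in MEP. A sum is led by its most abundant markers. The erythroid sum was higher in LSK than in CMP, but single markers were mixed. Over the 7 with 10 CPM or more in either gate, the median log2 ratio was 1.07 in CMP over LSK. Between 36 and 130 cell barcodes were shared by any pair of libraries, against 31.6 to 118 expected from the numbers of cells.

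Of the membrane subunits, the catalytic gene Cybb was the member most narrowly expressed. Its library level was 38.0 CPM (36.6 to 39.4) in GMP, 7.06 CPM (6.09 to 8.14) in CMP, 0.359 CPM (0.237 to 0.523) in LSK and 0.0125 CPM (0.000315 to 0.0694) in MEP. These levels rest on 2787 UMIs in GMP, 190 in CMP and 27 in LSK, against 1 in MEP. No 2 of the 4 intervals overlapped. At least 1 Cybb UMI was found in 24.6% of GMP cells, 3.64% of CMP cells, 0.184% of LSK cells and 0.0159% of MEP cells.

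Cyba, the partner that stabilises the catalytic subunit, was expressed in every gate and kept the same order of gates over a far smaller range. It was measured at 618 CPM (612 to 623) in GMP, 333 CPM (326 to 340) in CMP, 255 CPM (251 to 259) in LSK and 199 CPM (196 to 202) in MEP. Cells with a Cyba UMI made up 96.4% of GMP, 80.8% of CMP, 76.5% of LSK and 73.9% of MEP. The intervals of the 4 gates were separate, but the order of the last 2 depends on the scaling: the LSK over MEP ratio was 0.36 on the log2 scale with library totals, -0.16 with median-of-ratios factors and -0.08 with trimmed-mean (TMM) factors.

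The genes of the cytosolic complex, Ncf1 and Ncf4, were present in GMP, CMP and LSK and close to absent in MEP. Ncf1, the organiser that the burst depends on, was found at 71.6 CPM (69.7 to 73.6) in GMP, 43.2 CPM (40.7 to 45.7) in CMP, 33.5 CPM (32.2 to 34.8) in LSK and 0.187 CPM (0.105 to 0.308) in MEP. Ncf4 was found at 107 CPM (105 to 110) in GMP, 68.4 CPM (65.3 to 71.6) in CMP, 39.7 CPM (38.3 to 41.1) in LSK and 0.411 CPM (0.283 to 0.577) in MEP. For each gene GMP was highest, and no gate's interval reached that of its neighbour. Cells with an Ncf1 UMI made up 45.1% of GMP, 23.4% of CMP, 17.0% of LSK and 0.223% of MEP, and cells with an Ncf4 UMI 57.1% of GMP, 34.3% of CMP, 22.5% of LSK and 0.430% of MEP.

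Rac2, the GTPase that completes the active enzyme and also steers the cytoskeleton of blood cells, was the flattest member outside MEP. It was measured at 483 CPM (478 to 488) in GMP, 391 CPM (384 to 399) in CMP, 404 CPM (399 to 408) in LSK and 115 CPM (113 to 117) in MEP. Cells with a Rac2 UMI made up 96.0% of GMP, 87.0% of CMP, 87.7% of LSK and 69.1% of MEP. CMP and LSK were close to equal, and which was higher turned with the scaling: the CMP over LSK ratio was -0.05 on the log2 scale with library totals, 0.33 with median-of-ratios factors and 0.27 with TMM factors. Rac1, the form found in all tissues, stayed within 173 to 256 CPM, with 244 CPM in GMP, 256 CPM in CMP, 173 CPM in LSK and 215 CPM in MEP.

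**Figure D1:**
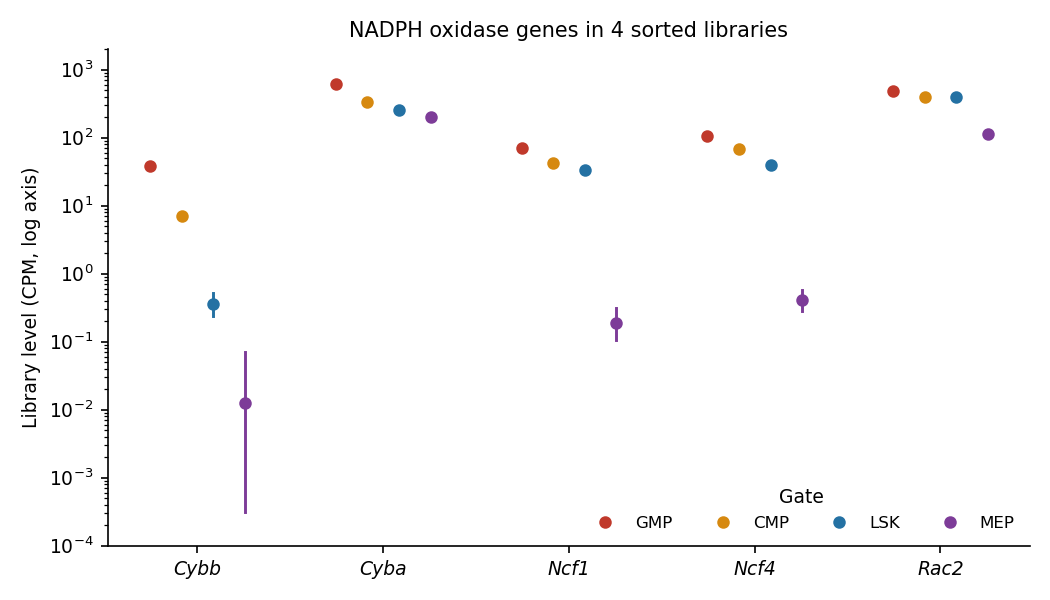
Level of each gene in each sorted library, in CPM on a log axis, with dots coloured by gate and vertical lines for the 95% Poisson intervals, most of which are shorter than the dots. Cybb spans 38.0 CPM in GMP to 0.0125 CPM in MEP, Ncf1 and Ncf4 drop below 1 CPM only in MEP, and Cyba and Rac2 stay at 115 CPM or more in all 4 gates.

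A gene was counted as higher in a library where that library had 10 CPM or more and the CPM ratio was 2 or more. Such a count rests on size alone, with no p-value. In GMP against CMP, 1 of the 5 genes, Cybb, was higher in GMP, where 2.99% of the 6953 genes with enough counts were higher in GMP by the same rule, and 0 were higher in CMP, where the share of all genes was 5.32%. The Cybb ratio was 5.38 (4.65 to 6.27). Cyba followed with a ratio of 1.85 (1.81 to 1.90), Ncf1 with 1.66 (1.56 to 1.77), Ncf4 with 1.57 (1.49 to 1.65) and Rac2 with 1.23 (1.21 to 1.26). All 5 intervals lay above 1, so each gene was measured higher in GMP by more than counting error.

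Against LSK, 4 of the 5 genes were higher in GMP by the rule, where 5.13% of 7930 genes were, and 0 were higher in LSK, where 21.0% of the genes were. The ratios were 106 (72.5 to 161) for Cybb, 2.70 (2.59 to 2.82) for Ncf4, 2.42 (2.38 to 2.46) for Cyba and 2.14 (2.04 to 2.25) for Ncf1. Rac2 was the exception, at 1.197 (1.178 to 1.215).

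Against MEP all 5 were higher in GMP, where 13.8% of 7170 genes were, and 0 were higher in MEP, where 12.8% were. Ncf1 was 383-fold higher (232 to 686) and Ncf4 261-fold higher (186 to 379), while Rac2 was 4.20-fold (4.11 to 4.30) and Cyba 3.10-fold (3.05 to 3.16) higher. For Cybb the single MEP UMI was set to a floor of 3 counts, which gave a ratio of 1016.5, with a counting interval from the observed counts of 547 to 120492.5.

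Between CMP and LSK, 0 of the 5 genes passed the rule in either direction (4 had the 10 CPM the rule needs, Cybb did not), where 2.05% of 7817 genes were higher in CMP and 12.3% were higher in LSK. Cybb was 19.7-fold (13.1 to 30.6) higher in CMP but stayed under 10 CPM there, and Ncf4 reached 1.72-fold (1.63 to 1.83). In CMP against MEP, 3 genes, Ncf1, Ncf4 and Rac2, were higher in CMP, where 14.6% of 7254 genes were, and 0 were higher in MEP, where 10.9% were. The same 3 genes were higher in LSK than in MEP, where 24.9% of 8034 genes were higher in LSK, and 0 were higher in MEP, where 9.16% were. Those ratios were 231 (139 to 414) for Ncf1, 166 (118 to 243) for Ncf4 and 3.40 (3.31 to 3.50) for Rac2 in CMP over MEP. In LSK over MEP they were 179 (108 to 321) for Ncf1, 96.6 (68.6 to 141) for Ncf4 and 3.51 (3.43 to 3.59) for Rac2.

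**Figure D2:**
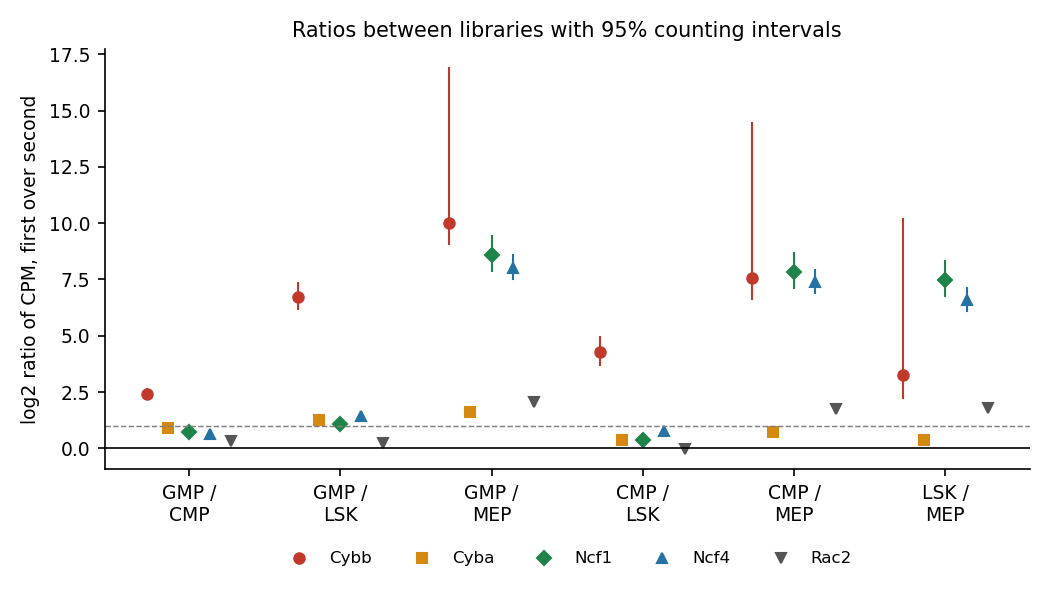
log2 ratio of CPM between libraries for the 5 genes, first-named gate over second, with 95% counting intervals; the dashed line marks 2-fold, and the Cybb points over MEP use a floor of 3 counts for the single MEP UMI. Cybb has the largest ratio in each of the 3 comparisons with GMP on top, and all 5 genes lie above 0 there.

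The median log2 ratio over the genes with 10 CPM or more, all 5 where GMP was on top, was 0.73 in GMP over CMP, against -0.05 over all genes with enough counts, and 1.28 in GMP over LSK, against -0.29. In GMP over MEP it was 8.03, against -0.18. In the other 3 comparisons Cybb lay under 10 CPM, and the median over the other 4 genes was 0.38 in CMP over LSK, against -0.21, 4.57 in CMP over MEP, against -0.11, and 4.20 in LSK over MEP, against 0.16. Other scalings moved all genes together: median-of-ratios factors added 0.16 to the log2 ratio in GMP over CMP, 0.54 in GMP over LSK and 0.38 in CMP over LSK, and took the ratio down by 0.14 in CMP over MEP and 0.52 in LSK over MEP. Under these factors and under TMM factors Cyba passed 2-fold in GMP over CMP, at 1.05 and 1.02 on the log2 scale, and Ncf4 passed it in CMP over LSK, at 1.16 and 1.10.

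To see which cells carried the transcripts, all 4 libraries went into 1 clustering from which the 5 genes were left out, and it gave 20 clusters named only from fixed markers of blood lineages. In bulk sums of a library, fewer cells of a type and less RNA per cell cannot be told apart, whereas within a cluster the level is per UMI of those cells. Of the 5 genes, Cybb differed most between groups of GMP cells. In the monocyte-like cluster 2 (2212 GMP cells, with F13a1 and Ly86 among its leading genes) Cybb stood at 54.8 CPM (51.8 to 57.9), and in the monocyte-like cluster 4 (1999 GMP cells, led by Trem2 and with Ly6c2) at 55.5 CPM (52.0 to 59.3). In the unnamed cluster 9 (1497 GMP cells, led by Wfdc21 and Cebpe) it stood at 9.65 CPM (8.14 to 11.4), and in the granulocyte-monocyte progenitor-like cluster 11 (1370 GMP cells, led by Cebpe) at 10.3 CPM (8.44 to 12.4). The 256 basophil/mast-like GMP cells had 4.94 CPM.

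Pooled, monocyte-like GMP cells (4253) had 54.7 CPM of Cybb, and all other GMP cells (3259) had 13.6 CPM, a ratio of 4.02 (3.60 to 4.50). The other cells included the 28 neutrophil-like GMP cells. Without them the others had 9.54 CPM and the ratio was 5.73 (5.04 to 6.54). At clustering resolution 2 the ratio was 2.54, but only 1970 GMP cells kept the monocyte-like name, at 66.4 CPM. The 5542 others, at 26.2 CPM, then included 1467 GMP cells of an unnamed cluster with Ly6c2 and F13a1 among its leading genes. In the main clustering the cytosolic subunit gene Ncf4 showed the same direction with 126 CPM in monocyte-like cells and 78.4 CPM in the others, a ratio of 1.61 (1.53 to 1.70). Ncf1 had 76.1 and 65.4 CPM, a ratio of 1.16 (1.10 to 1.23), and Cyba 651 and 564 CPM, a ratio of 1.15 (1.13 to 1.18). Rac2 was level, with 481 and 484 CPM and a ratio of 0.995 (0.973 to 1.02). Of the 1796 GMP cells with a Cybb UMI, 48.4% lay in cluster 2 and 37.5% in cluster 4, which held 29.4% and 26.6% of the GMP cells left after doublets were taken out. These cells come from 1 library and are not replicates.

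The highest levels of all 5 genes were in a neutrophil-like cluster of 35 cells, of which 28 were in GMP, 6 in CMP and 1 in LSK, against 0 in MEP. Its leading genes were the secondary granule genes Camp, Ngp and Ltf with S100a8 and S100a9. Over the 35 cells Cybb reached 1081 CPM (919 to 1263), Cyba 2757 CPM (2494 to 3040) and Rac2 1416 CPM (1230 to 1623), and all 35 cells held at least 1 UMI of each of these genes. Ncf1 reached 376 CPM (283 to 490) and Ncf4 431 CPM (331 to 551), with a UMI in 74.3% and 77.1% of the cells. Rac1 stood at 233 CPM (161 to 325), within its range across the gates. In the 28 GMP cells all 11 neutrophil markers were present, and no UMI was found of 12 of 12 stem cell or 14 of 14 erythroid markers.

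These few cells held 113 of the 2787 Cybb UMIs in GMP, or 4.05%, but 41 of the 190 in CMP, or 21.6%, and 4 of the 27 in LSK. Without them Cybb was at 36.5 CPM in GMP and the GMP over CMP ratio was 6.58, 2.72 on the log2 scale (2.48 to 2.97), so the difference was larger without these cells. For the other 4 genes they held at most 1.28% of the UMIs of a gate.

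**Figure D3:**
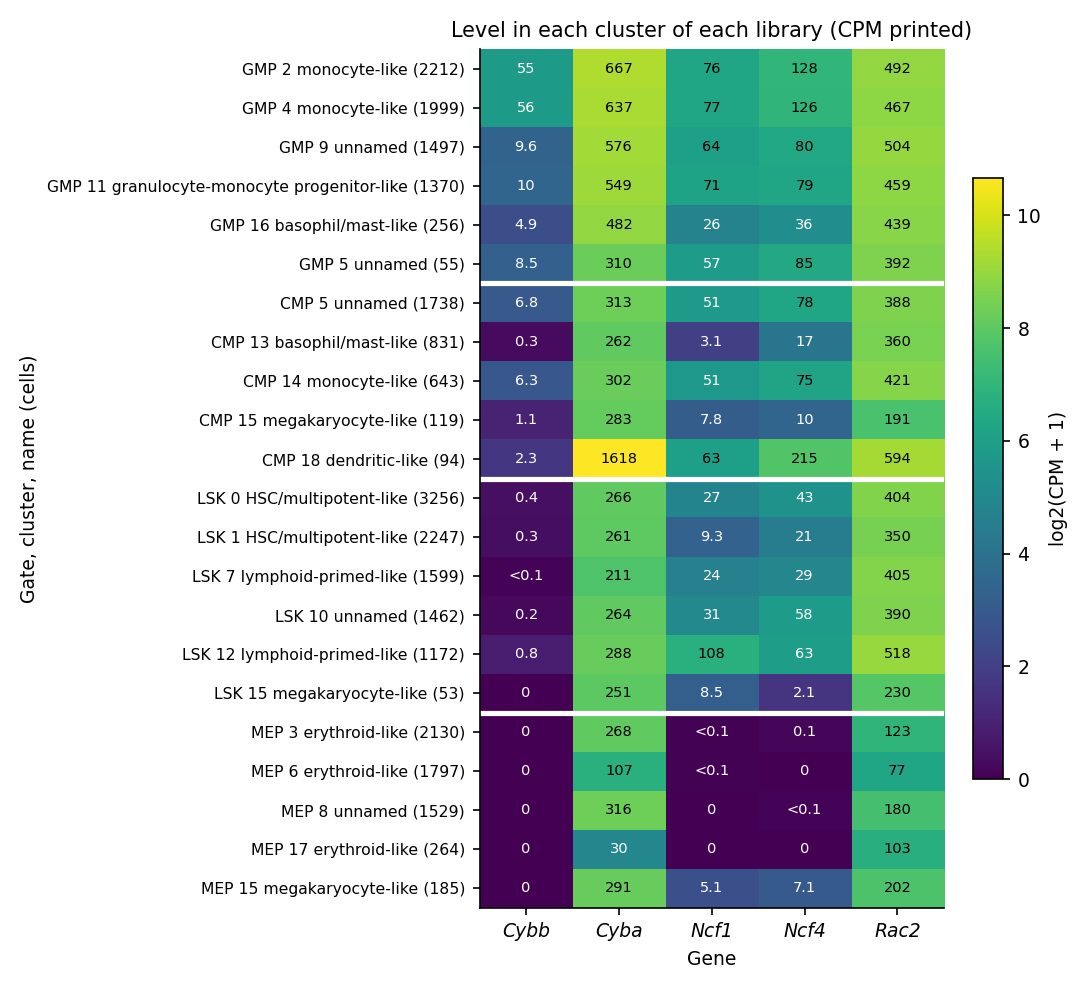
CPM of each gene, printed in the cells of the map and coloured by log2(CPM + 1), in every cluster with 50 or more cells of a library, grouped by library and labelled with gate, cluster number, name and number of cells. Cybb is above 50 CPM in clusters 2 and 4 of GMP and at or below 10.3 CPM in every other group drawn, Cyba peaks at 1618 CPM in dendritic-like CMP cells, and Ncf1 and Ncf4 empty out in MEP.

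In CMP, Ncf1 and Ncf4 differed widely between clusters and were lowest in the basophil/mast-like and megakaryocyte-like cells. The unnamed cluster 5 (1738 CMP cells, led by Cxcl2, Ccl4 and Ccl3) had 51.4 CPM (47.5 to 55.5) of Ncf1 and 77.9 CPM (73.1 to 83.0) of Ncf4, and the monocyte-like cluster 14 (643 cells, with Irf8 among its leading genes) had 50.7 CPM of Ncf1 and 74.9 CPM of Ncf4. The basophil/mast-like CMP cells (831) were those of cluster 13, led by Ms4a2 and Csrp3, and that name had a small lead. The mean log2 ratio of markers to all other cells was 1.09 for basophil/mast and 0.677 for megakaryocyte. These 831 cells also had 67.9 CPM of Klf1, 88.8 CPM of Gata1 and 73.3 CPM of Pf4, which are erythroid and megakaryocyte markers. In cluster 5 the same 3 genes had 0.798, 2.95 and 9.17 CPM. Basophil/mast-like CMP cells had 3.09 CPM (1.60 to 5.39) of Ncf1 and 16.7 CPM (12.9 to 21.3) of Ncf4, and megakaryocyte-like CMP cells (119) had 7.80 and 10.0 CPM. Rac2 did not share that drop in the basophil/mast-like cells, at 360 CPM against 388 CPM in cluster 5, but was lower, at 191 CPM, in the megakaryocyte-like cells. Of the 131 CMP cells with a Cybb UMI, 73 lay in cluster 5, 35 in cluster 14, 12 in cluster 4, 6 among the neutrophil-like cells and 1 among the 831 basophil/mast-like cells. Cluster 5 held 55.7% of these cells and 48.2% of the CMP cells left after doublets were taken out. For cluster 14 the shares were 26.7% and 17.8%, and for the basophil/mast-like cells 0.763% and 23.1%. The 47 CMP cells of cluster 4, the cluster made up mostly of GMP monocyte-like cells, had 29.4 CPM (15.2 to 51.3) of Cybb, against 54.8 and 55.5 CPM in GMP clusters 2 and 4. Not every monocyte-like group had such levels. In the monocyte-like cluster 14, Cybb stood at 6.34 CPM (4.57 to 8.57) in the 643 CMP cells and at 5.63 CPM (0.681 to 20.3) in 42 GMP cells.

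A dendritic-like group of 94 CMP cells, led by Plbd1, Ifi205, Batf3 and Cd74, had the highest level of the membrane subunit gene Cyba outside the neutrophil-like cells. It had 1618 CPM (1501 to 1741) of Cyba, 215 CPM (174 to 263) of Ncf4, 63.4 CPM (42.1 to 91.7) of Ncf1 and 594 CPM of Rac2, but 1 UMI of Cybb in all, 2.27 CPM (0.0574 to 12.6). The same cluster held 37 LSK cells with 725 CPM (621 to 841) of Cyba and 28 MEP cells with 1170 CPM (992 to 1371). In CMP, LSK and MEP alike, no other group of 20 or more cells of the same library had as much Cyba.

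In LSK, Ncf1 was unevenly spread. The lymphoid-primed-like cluster 12 (1172 LSK cells, led by Dntt, which adds bases to rearranging antigen receptor genes, with Ccr9) had 108 CPM (101 to 116) of Ncf1, above the 77.4 CPM (73.2 to 81.8) of the highest GMP cluster with 50 or more cells. Dntt stood at 1158 CPM in these cells and the granule gene Elane at 1.08 CPM. Other LSK clusters had 31.2 CPM in the unnamed cluster 10, 26.7 CPM in the stem cell-like cluster 0 and 24.3 CPM in cluster 7, a lymphoid-primed-like cluster with histone and cell cycle genes among its leading genes. The stem cell-like cluster 1 (2247 cells, with Mmrn1 and Socs2 among its leading genes) was lowest among the large ones at 9.28 CPM (7.64 to 11.2). Ncf4 ranged from 21.3 CPM (18.8 to 24.1) in cluster 1 to 62.7 CPM (57.1 to 68.7) in cluster 12, whose interval overlapped that of cluster 10 (57.7 CPM, 53.4 to 62.3). Cyba and Rac2 differed less among the 5 large LSK clusters, at 211 to 288 CPM and 350 to 518 CPM. Cybb stayed at or below 0.812 CPM in each of them.

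In MEP cells Cybb, Ncf1 and Ncf4 were close to absent, while Cyba and Rac2 were found in most cells. In the 4191 erythroid-like MEP cells (median 15107 UMIs) Cybb was found in 0 cells, which allows a share of cells with a UMI of up to 0.0716% at 3 cells and has an exact 95% upper bound of 0.088%, Ncf1 in 2 cells and Ncf4 in 4. Cyba was found in 72.3% of them and Rac2 in 69.3%. Cyba differed widely among the erythroid-like clusters, at 268 CPM in cluster 3 (led by Kcng2 and with Car1), 107 CPM in cluster 6 and 29.97 CPM (24.95 to 35.7) in cluster 17, which was led by haemoglobin genes. Rac2 stood at 123, 76.6 and 103 CPM in the same clusters. The unnamed cluster 8 had 316 CPM of Cyba and 180 CPM of Rac2.

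Much of the little Ncf4 and Ncf1 in MEP lay outside the erythroid-like cells. Among the 5968 MEP cells left after doublets were taken out, the 28 dendritic-like cells held 11 Ncf4 UMIs and 4 Ncf1 UMIs, and the 185 megakaryocyte-like cells held 7 and 5. The single MEP cell with a Cybb UMI held a further 6 Ncf4 and 2 Ncf1 UMIs, with 142 of its 4749 UMIs from Elane, and it fell in cluster 9, to which GMP gave 1497 of 1508 cells.

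Depth per cell differs between the gates, so shares of cells were also taken after each cell had been thinned to 2000 UMIs. At that depth a Cybb UMI was found in 7.02% (6.45 to 7.62) of 7512 GMP cells, 1.07% (0.755 to 1.46) of 3567 CMP cells, 0.0504% of 9925 LSK cells and 0.0168% of 5968 MEP cells. Ncf1 was found in 13.3% of GMP, 6.25% of CMP, 5.97% of LSK and 0.117% of MEP cells, and Ncf4 in 19.1%, 11.9%, 7.43% and 0.251% of the cells of the same gates. The shares of Cyba were 67.9% in GMP, 45.6% in CMP and 39.5% in LSK, against 32.2% in MEP, and those of Rac2 were 61.2%, 52.7%, 54.7% and 22.1%. The order of gates was that of the library levels for each gene. CMP and LSK overlapped in their intervals for Ncf1 (5.48 to 7.10 and 5.52 to 6.46).

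Transcripts of 3 or more of the 5 genes were found together in 17.6% (16.8 to 18.5) of GMP cells, 5.86% (5.11 to 6.68) of CMP cells, 3.40% (3.05 to 3.77) of LSK cells and 0.101% (0.0369 to 0.219) of MEP cells. All 5 were found in 13 GMP cells, 1 CMP cell, 0 LSK cells and 1 MEP cell, the one with Cybb described above. No UMI of any of the 5 was found in 9.13% of GMP, 22.5% of CMP, 24.1% of LSK and 53.3% of MEP cells. The share with 3 or more depends on depth, at 44.1% of GMP, 20.2% of CMP, 13.1% of LSK and 0.159% of MEP cells at 4000 UMIs, in the same order of gates.

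**Figure D4:**
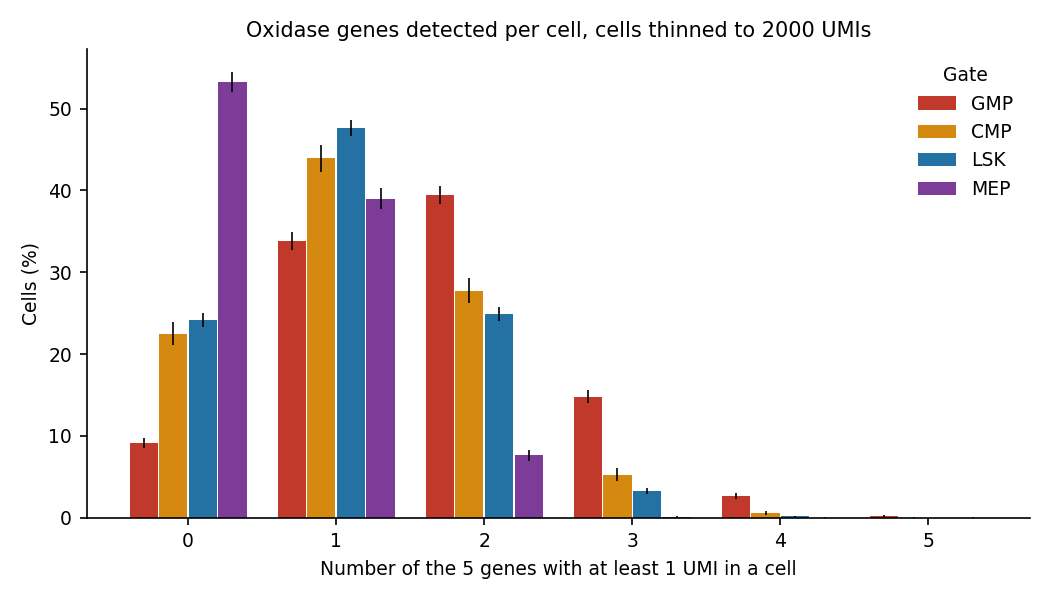
Share of cells (%) by the number of the 5 genes with at least 1 UMI in the cell, for each gate, after thinning to 2000 UMIs, with 95% Clopper-Pearson intervals. The MEP bars are tallest at 0 genes (53.3%), those of CMP and LSK at 1 gene and those of GMP at 2 genes (39.4%).

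Within thinned GMP cells the odds ratio of finding both genes of a pair was above 1 for all 10 pairs, where 1 would mean that the genes were found independently. It was 1.54 for Cybb with Ncf4, 1.53 for Cybb with Cyba, 1.37 for Cybb with Rac2 and 1.33 for Cybb with Ncf1. An Ncf4 UMI, for example, was found in 26.0% of the cells with a Cybb UMI and in 18.5% of those without. The 6 pairs without Cybb had odds ratios of 1.06 to 1.198, the lowest of them close to 1. For that pair, a Rac2 UMI was found in 62.3% of cells with an Ncf1 UMI and in 61.0% of those without. No interval is given here. Inside the monocyte-like cluster 2 the odds ratio of Cybb with Ncf4 was 1.22 and that of Cybb with Cyba was 1.09, and inside the monocyte-like cluster 4 they were 1.18 and 1.42. The pairs without Cybb lay on both sides of 1 there, at 0.978 to 1.16 in cluster 2 and 0.962 to 1.29 in cluster 4. Without thinning Cybb with Cyba was at 3.12 and Cybb with Rac2 at 2.09, while with doublets kept in Cybb with Rac2 was at 1.10. No p-value is given, since cells of 1 library are not replicates.

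GMP cells with a Cybb UMI (1796) were set beside those without (5716) at full depth, with medians of 9645.5 and 8685.5 UMIs. Cells with Cybb had 720 CPM of Cyba, against 578 CPM in those without, and 133 CPM of Ncf4, against 97.2 CPM. They also had 760 CPM of Irf8, the factor that directs progenitors to monocytes and dendritic cells, against 403 CPM, and 70.5 CPM of Cebpe, a factor of granule formation in neutrophils, against 168 CPM. The PU.1 gene Spi1 had 272 CPM in cells with Cybb, against 247 CPM in those without.

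Cells were then grouped by their own UMIs of each factor after thinning, so that the count of the factor in a cell is coarse. In GMP cells with 0, 1, 2 and 3 or more Irf8 UMIs, Cybb stood at 29.3, 45.5, 57.2 and 65.6 CPM, and Ncf4 at 88.6, 113, 121 and 157 CPM. Each of these levels was higher than the one before it, and the intervals of the first and last groups did not overlap. Rac2 changed little, with 481, 479, 476 and 520 CPM. By Spi1 the Cybb levels were 38.2, 41.2, 64.2 and 45.8 CPM, with no steady order.

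By Cebpe the high Cybb level of the last group rested on the neutrophil-like cells. With 0, 1, 2 and 3 or more Cebpe UMIs, Cybb stood at 42.5, 27.2, 33.3 and 104 CPM, and the last group held 158 cells. Without the neutrophil-like cells the same levels were 41.5, 22.4, 10.7 and 17.0 CPM, and the last group held 147 cells. The fall from 0 Cebpe UMIs (37.9 to 45.3) to 1 (16.6 to 29.6) thus remained. With 2 and with 3 or more, the levels rest on 6 and 5 Cybb UMIs (3.93 to 23.3 and 5.52 to 39.7 CPM). Ncf4 stood at 112, 85.7, 83.9 and 61.2 CPM without the neutrophil-like cells.

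**Figure D5:**
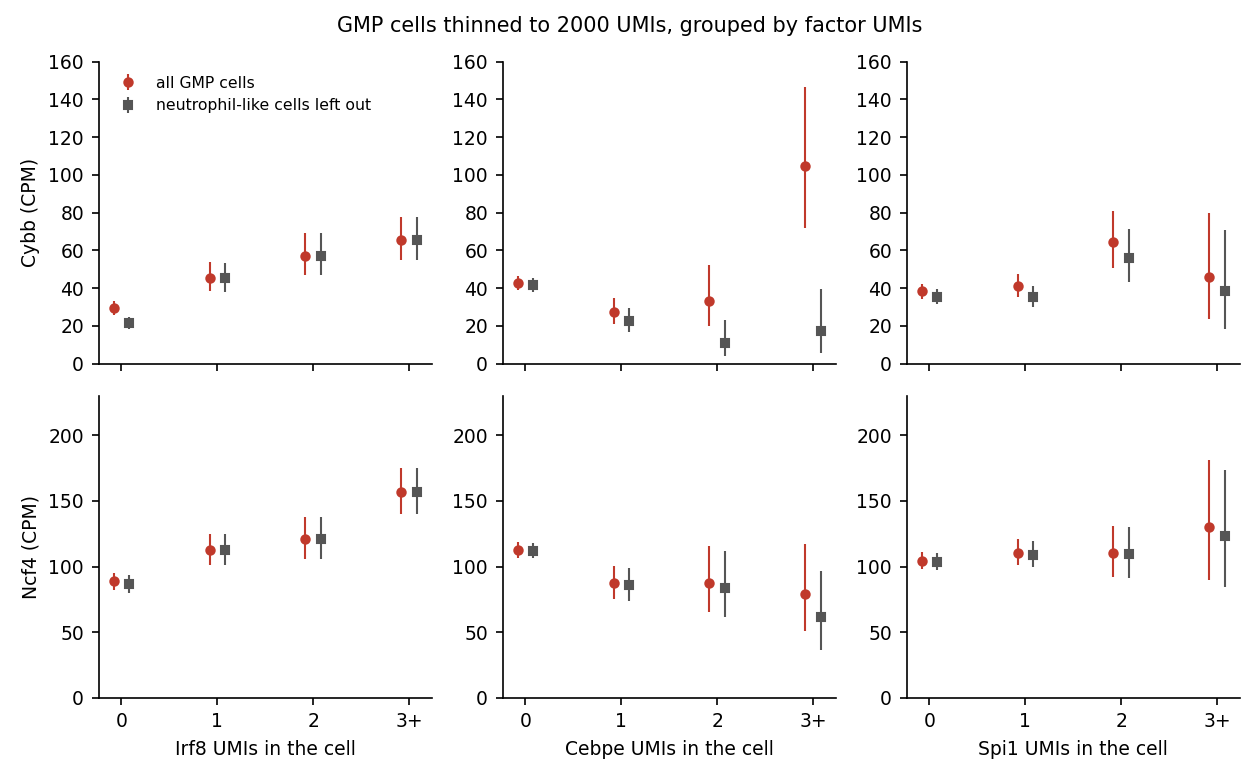
Cybb and Ncf4 levels (CPM) in GMP cells thinned to 2000 UMIs, doublets left out, grouped by UMIs of Irf8, Cebpe or Spi1 in the cell (3+ means 3 or more), for all cells (red) and with the neutrophil-like cells left out (grey); lines are 95% Poisson intervals. Cybb climbs with Irf8 from 29.3 to 65.6 CPM, and its 104 CPM in the highest Cebpe group is 17.0 CPM without the neutrophil-like cells.

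In CMP cells grouped in the same way, Ncf1 stood at 19.1, 44.7, 40.0 and 63.0 CPM with 0, 1, 2 and 3 or more Irf8 UMIs, and Cyba at 278, 307, 384 and 563 CPM. The last group of 587 cells held 85 dendritic-like cells, which are rich in both Irf8 and Cyba. Without the dendritic-like cells Cyba stood at 278, 306, 375 and 362 CPM, with no rise in the last group, and Ncf1 at 19.1, 44.1, 40.3 and 61.8 CPM. Grouping by Gata2, a factor of stem, mast and megakaryocyte cells, ran the other way for Ncf1, with 36.6 CPM in cells without a Gata2 UMI and 9.46 CPM (3.80 to 19.5) in the 370 cells with 1. The 73 cells with 2 Gata2 UMIs had 0 Ncf1 UMIs. Rac2 had 395 CPM in CMP cells without Gata2, 334 CPM in those with 1 UMI and 404 CPM (308 to 521) in those with 2, with no steady order.

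The other catalytic genes of the oxidase family and the partners of NOX1 were close to absent. Of 15 catalytic subunits and partners, the other catalytic genes Nox1, Nox3, Nox4, Duox1 and Duox2 had at most 9 UMIs in any library, and the partners Noxa1 and Noxo1 of NOX1 reached 0.865 and 0.984 CPM in LSK. Cybc1, which helps the cytochrome to fold and is listed under an older symbol in the matrices, was found at 39.6 CPM in GMP, 26.6 CPM in CMP, 37.0 CPM in LSK and 19.1 CPM in MEP. By the 10 CPM and 2-fold rule, 6 of the 15 were higher in GMP than in MEP (6 had enough counts, and 13.8% of all genes were higher in GMP) and 0 were lower, and 1 was higher in GMP than in CMP, where 2.99% of all genes were. The list's counts include the members Cybb, Cyba, Ncf1 and Ncf4.

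Of 20 genes of the Rac family and its regulators, 0 were higher in GMP than in CMP, 2 were higher in GMP and 2 in LSK when those 2 gates were compared, and 8 were higher in GMP than in MEP, with 0 higher in MEP. Of the 20, 15 had enough counts against CMP and LSK and 14 against MEP, and the shares of all genes were 2.99% higher in GMP than in CMP, 5.13% and 21.0% in GMP and LSK, and 13.8% in GMP over MEP. The list's counts include the member Rac2, which is among the 8 higher in GMP than in MEP. Arhgdib, the blood cell inhibitor that holds Rac in the cytosol, had 966 CPM in GMP, 554 CPM in CMP, 484 CPM in LSK and 133 CPM in MEP. Rasgrp2, an exchange factor for Rap1, had 334 CPM in GMP, 198 CPM in CMP, 141 CPM in LSK and 9.34 CPM in MEP. Cdc42 and Rap1a passed the rule in none of the 6 comparisons, with Cdc42 at 398, 407, 348 and 247 CPM in GMP, CMP, LSK and MEP.

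Of 16 activating kinases and lipid enzymes, 1 was higher in GMP than in CMP and 1 in CMP, and 1 was higher in GMP than in LSK and 4 in LSK. With 14 of the 16 genes counted, these stand beside 2.99% and 5.32% of all genes against CMP and 5.13% and 21.0% against LSK, so the 4 are near the background. Hvcn1, the proton channel that balances the charge moved by the oxidase, was the one higher in GMP both times, with 31.6 CPM in GMP, 9.81 CPM in CMP, 6.61 CPM in LSK and 0.0498 CPM in MEP. Prkcd, a kinase that phosphorylates p47phox, had 58.5 CPM in GMP, 39.5 CPM in CMP, 42.0 CPM in LSK and 9.04 CPM in MEP. Of 17 measured factors reported at oxidase genes, 4 were higher in GMP than in LSK (Irf8, Cebpa, Cebpb and Cebpe) and 11 were higher in LSK, where 5.13% and 21.0% of all genes were. Spi1 had 251 CPM in GMP, 223 CPM in CMP, 156 CPM in LSK and 6.03 CPM in MEP.

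Of 13 measured receptors listed for the burst, 2 were higher in GMP than in CMP and 4 were higher in GMP than in LSK, with 0 the other way. Only 5 of the 13 had enough counts. Of all genes, 2.99% and 5.13% were higher in GMP in these comparisons, and 5.32% were higher in CMP and 21.0% in LSK. Fcgr3, one of the antigens on which the gates were sorted, had 208 CPM in GMP and 13.9 CPM in CMP and is no finding between them. The formyl peptide receptors Fpr1 and Fpr2 and the complement receptor C5ar1, through which bacteria and complement start the burst in mature phagocytes, had at most 0.463 CPM in any gate.

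Across the 22 groups of 1 library and 1 cluster with 50 or more cells, the genes whose log2(CPM + 1) followed each member most closely among 9163 genes were listed by Pearson correlation, as a description over groups that share libraries and depth. For Cybb these were Clec5a (0.970), Ly6c2 (0.965), Mefv (0.954), Mtus1 (0.950) and F13a1 (0.944). Cyba was followed by Csf2ra (0.907), a chain of the GM-CSF receptor, then by Rab2a, Ctsc, Mvb12a and Ostf1. Ncf1 was followed by Emb (0.963), Bex6, Myo1f, Gria3 and Cd52, and Ncf4 by Cd52 (0.970), Myo1f, BC035044, Rogdi and Bex6, so 3 genes stood in both lists. Rac2 was followed by Spi1 (0.979), then by Tm6sf1, Limd2, Napsa and Rin3. Within thinned GMP cells no such relation was seen. With 0, 1, 2 and 3 or more Spi1 UMIs, Rac2 stood at 481, 495, 486 and 458 CPM, with overlapping intervals. The lists depend on the clusters: at resolution 2, with 33 groups, 2 of the 5 genes for Cybb (Clec5a and Mefv), 2 for Cyba (Csf2ra and Ostf1), 3 for Ncf1, 4 for Ncf4 and 4 for Rac2 were listed again.

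Among the members themselves, Ncf1 with Ncf4 had the highest correlation (0.956), followed by Ncf4 with Rac2 (0.939) and Ncf1 with Rac2 (0.912). Cybb was the least like the others, at 0.566 with Cyba, 0.569 with Rac2, 0.681 with Ncf4 and 0.683 with Ncf1. With Gata1, the erythroid and megakaryocyte factor, the correlations were -0.921 for Ncf1, -0.901 for Ncf4, -0.835 for Rac2, -0.689 for Cybb and -0.575 for Cyba.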

How the data were processed

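The deposited matrices hold whole-number UMI counts per gene and cell barcode, made by the authors with a 10x Genomics 3' kit per the labels' protocols. Per the submitters' processing notes, the tools were Seurat 2.3.0, Cell Ranger 2.0.0 and CASAVA 1.8.2 with the build mm10; strand use is not given in the sources used here. The 2 CMP samples were identical and used once; their 3738 barcodes stand beside 12185 stated cells, and the rest were not analysed here. LSK cells were the barcodes with the most UMIs, up to the stated number (2110 UMIs or more). Cells with under 500 genes or over 10% mitochondrial UMIs were left out.

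Levels are CPM with exact Poisson intervals, ratios have conditional binomial intervals and shares Clopper-Pearson intervals, at 95% and for counting error only; 3 UMIs equal 0.0374 to 0.111 CPM. With 1 library per gate no test was possible. Doublets, scored against made pairs of cells at 0.8% per 1000 cells, were removed (515 GMP, 110 CMP, 945 LSK and 316 MEP cells) from clusters and per-cell shares but not from library totals. Clustering (scanpy 1.11.5, leidenalg 0.10.2) used 1997 variable genes without the 5 members, 30 components, 15 neighbours and resolution 1; a name needed 3 markers. Scaling alternatives were median-of-ratios and edgeR 4.0.16 TMM factors. Python 3.11.15, numpy 2.4.6, scipy 1.17.1, pandas 2.3.3, R 4.3.3 and matplotlib 3.10.9 were used. The rule for calling a gene higher and the ratio intervals were tested on simulated library counts with counting noise only. The steps on single cells were not tested in that way. The genes named beside the members are those of 5 pathway lists and the 5 most alike per member. Members, lists and markers were chosen with earlier results of these data known. One gene of the complex is not reported here.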

Additional observations from a re-analysis of the deposited data

Results flagged for a closer look

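The LSK matrix also lists barcodes that were not counted as cells. The 426182 of them with 1 to 100 UMIs held 1179757 UMIs, and 4 of the oxidase genes were measured there above the limit that a count of 0 allows. Cyba stood at 309.39 CPM in these barcodes and 254.95 CPM in LSK cells, and Rac2 at 417.04 CPM in these barcodes and 403.54 CPM in LSK cells. Ncf4 stood at 44.077 CPM in these barcodes and 39.698 CPM in LSK cells, and Ncf1 at 26.277 CPM in these barcodes and 33.472 CPM in LSK cells. Cybb had 1 UMI there. The part of free RNA in the per-cell shares was not tested. In erythroid-like MEP cells, where Cybb was found in 0 cells, Ncf1 was found in 2 of 4191 and Ncf4 in 4. MEP was a separate library with only 15 Ncf1 and 33 Ncf4 UMIs in all, so these cells cannot show how much free RNA the LSK cells held.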

How the results depend on the processing

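No paired analysis was possible because each gate was 1 library. With median-of-ratios or TMM factors, 2 members were counted as higher in GMP than in CMP (Cybb and Cyba) and 1 was higher in CMP than in LSK (Ncf4). With a minimum of 50 CPM, 0 members were higher in GMP than in CMP (2.92% of all genes were) and 1 (Rac2) was higher in LSK than in MEP (16.4%). Cybb was also lost from GMP over LSK, which left 3 members (7.49%), and from GMP over MEP, which left 4 (12.2%), and Ncf1 from CMP over MEP, which left 2 (11.3%). With a minimum of 1 CPM, Cybb was higher in CMP than in LSK, 1 member (3.27%), and than in MEP, which made 4 (21.7%). The Cybb ratio of monocyte-like over other GMP cells was 2.54 at clustering resolution 2, 3.30 with doublets kept in and 5.73 without the neutrophil-like cells. At resolution 2 the monocyte-like name covered 1970 GMP cells, against 4253 in the main clustering. The share of cells with 3 or more members was 44.067% in GMP, 20.161% in CMP and 13.111% in LSK at 4000 UMIs, and 74.334% in GMP, 39.134% in CMP and 25.451% in LSK, against 0.4189% in MEP without thinning. Of the log2 ratios recomputed, 146 moved by less than their counting interval and 34 by more.

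The minimum moved the counts over all genes most. Of GMP over CMP calls there were 578, against 195 at 50 CPM and 1570 at 1 CPM; the other comparisons had 2073, 656 and 4261 (GMP over LSK), 1909, 745 and 3534 (GMP over MEP), 1123, 270 and 2941 (CMP over LSK), 1851, 678 and 3709 (CMP over MEP), and 2738, 1000 and 5076 (LSK over MEP). Median-of-ratios factors turned the split of higher and lower calls to 1222 and 750 in GMP over LSK (407 and 1666 with library totals), 429 and 391 in CMP over LSK (160 and 963), 283 and 297 in GMP over CMP (208 and 370), and 1198 and 1912 in LSK over MEP (2002 and 736). Of the odds ratios recomputed, 13 left their interval and 17 did not. Leaving out the neutrophil-like or the dendritic-like cells was chosen after seeing the data, and the first changed no member's call between gates. Depth limits Cybb most, with 27 UMIs in LSK and 1 in MEP.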
